A study of Homo sapiens with 13 samples.

Results

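Chromatin accessibility was examined around 7 genes of the cholesterol supply of the cell. HMGCS1, IDI1, FDFT1, SQLE and LSS encode enzymes of sterol synthesis, and SREBF2 and INSIG1 encode regulators of the same enzymes and of sterol uptake. The 7 genes were given as a list of symbols, and a peak was assigned to a gene when it overlapped the gene body extended by 10 kb on each side. This gave 33 of the 129347 peaks in the deposited table. A peak was called a TSS peak when it overlapped an annotated transcription start site. Of the 33 peaks, 9 were TSS peaks of the 7 genes, 3 were TSS peaks of neighbouring genes and 21 were other peaks.

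The cells were T98G, an established human glioblastoma line, and ATAC-seq was used, in which the Tn5 transposase inserts sequencing adapters where DNA is open. The 3 G1 libraries came from cells kept without serum for 72 h. The 3 M-phase libraries came from cells kept without serum for 48 h and then released for 36 h into medium with serum and nocodazole, a drug that blocks microtubule assembly, after which loosely attached mitotic cells were shaken off. Serum, nocodazole and phase changed together and cannot be told apart, nor can the sequencing platform, since G1 was run on the HiSeq only and each M-phase replicate had a HiSeq and a NextSeq run. All cells came from 1 line with the same genotype, and nothing in the labels says that the replicates were separate cultures, so p-values measure the spread between these libraries. The values were read counts in peaks that the authors had scaled down to the smallest library, here called scaled counts. They added up to 4191845 to 5092426 over all peaks in the G1 libraries and to 5475345 to 6000423 in the M-phase libraries, so that every M-phase total lay above every G1 total. As a check of the cell type, all 4 glioma or mesenchymal markers examined (VIM, CD44, FN1 and SOX9) had a TSS peak. Of 4 markers of other cell types, PTPRC, CD3E and ALB had none and EPCAM had 1, with a mean scaled count of 91.6 in G1 and 106.8 in M-phase. CD44 had the lowest values among the 4 glioma or mesenchymal markers, 155 in G1 and 206 in M-phase.

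Cells make cholesterol from acetyl-CoA through the mevalonate pathway. Its enzymes are controlled mainly by SREBP-2, the product of SREBF2, a transcription factor held as a precursor in the membrane of the endoplasmic reticulum. When sterols are low, SCAP escorts SREBP-2 to the Golgi, where it is cut free and moves to the nucleus. There it binds sterol regulatory elements (SREs), typically beside binding sites for NF-Y and Sp1. INSIG1 is both a retention factor that holds the SCAP complex back when sterols are abundant and a target gene of the factor it restrains.

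The promoters of the genes carried these sequence elements to different extents. Sites were searched on both strands in the 300 bases upstream of the canonical TSS, with TCACNCCAC for the SRE, CCAAT for NF-Y, GGGCGG for Sp1 and CACGTG for the E-box. The SRE was present in 2 of 7 promoters, those of HMGCS1 and SREBF2, against 1.19% of 19856 protein-coding promoters of the same length. It lay 259 to 251 bases upstream of the TSS in HMGCS1 and 133 to 125 bases upstream in SREBF2. With the shorter form CACNCCAC, which lies within the full site, 4 of 7 promoters held a match, FDFT1 and INSIG1 being added, against 6.12% of all. CCAAT was found in 7 of 7 promoters against 37.8% of all, and GGGCGG in 7 of 7 against 60.9%. CACGTG was found in 1 of 7, that of INSIG1, against 8.88% of all. In the promoters of 30 other sterol pathway genes the SRE was found in 0, the shorter form in 1, CCAAT in 15 and GGGCGG in 28. A match is a description of the letters and does not show that a factor was bound.

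The 200 bases upstream of the first annotated start within the TSS peak are printed for HMGCS1, SREBF2 and INSIG1, which hold an SRE or its shorter form, and for LSS and IDI1, whose TSS peaks changed most. The FDFT1 promoter, which holds the shorter form 112 to 105 bases upstream of the TSS, is not printed here. The printed stretches are given 5′ to 3′ on the strand of the gene in GRCh37, the assembly of hg19, and each lies wholly inside the TSS peak. Capitals mark matches to the SRE, its shorter form or CCAAT, on either strand, so that ATTGG is CCAAT read from the other strand. The windows are chr5:43313615-43313814 on the minus strand for HMGCS1, chr22:42228909-42229108 on the plus strand for SREBF2, chr7:155089286-155089485 on the plus strand for INSIG1, chr21:47648739-47648938 on the minus strand for LSS and chr10:1095060-1095259 on the minus strand for IDI1.
HMGCS1: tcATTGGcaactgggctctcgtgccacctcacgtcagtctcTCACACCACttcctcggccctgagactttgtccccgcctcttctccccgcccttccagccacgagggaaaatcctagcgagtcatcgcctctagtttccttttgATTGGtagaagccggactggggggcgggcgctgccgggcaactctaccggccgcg
SREBF2: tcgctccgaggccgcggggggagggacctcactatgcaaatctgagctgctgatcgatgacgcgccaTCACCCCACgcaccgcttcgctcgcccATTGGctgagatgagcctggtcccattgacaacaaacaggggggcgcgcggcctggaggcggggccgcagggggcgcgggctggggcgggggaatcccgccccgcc
INSIG1: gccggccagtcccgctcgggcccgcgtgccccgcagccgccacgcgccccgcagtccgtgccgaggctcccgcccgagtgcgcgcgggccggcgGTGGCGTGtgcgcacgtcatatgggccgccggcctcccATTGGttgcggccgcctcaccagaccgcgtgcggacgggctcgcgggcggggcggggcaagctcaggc
LSS: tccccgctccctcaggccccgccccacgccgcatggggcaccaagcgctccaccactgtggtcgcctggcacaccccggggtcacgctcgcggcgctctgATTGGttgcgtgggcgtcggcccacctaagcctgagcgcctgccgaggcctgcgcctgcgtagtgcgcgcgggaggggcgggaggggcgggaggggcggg
IDI1: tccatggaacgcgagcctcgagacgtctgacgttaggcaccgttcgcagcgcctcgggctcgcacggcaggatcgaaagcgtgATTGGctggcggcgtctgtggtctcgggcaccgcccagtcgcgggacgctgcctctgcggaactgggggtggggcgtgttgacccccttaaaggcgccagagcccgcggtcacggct
The HMGCS1 and SREBF2 windows show the full SRE within the same stretch as an NF-Y site, and the INSIG1 window shows the shorter form. The LSS and IDI1 windows hold an NF-Y site and neither form of the SRE.

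At the TSS, accessibility of 8 of the 9 peaks was higher in M-phase than in G1 (limma with Benjamini-Hochberg adjustment over 73121 peaks, adjusted p under 0.05), none was lower, and after a trended loess normalization 2 were higher and 2 lower. Changes are given as M-phase minus G1 on the log2(scaled count + 8) scale. They ranged from -0.17 to 1.66 with a median of 0.91. The count of peaks lower at an unadjusted p under 0.05 was also 0, with the scaling of the authors, with TMM and with equal totals. Over all 15500 TSS peaks tested, 43.2% were higher and 5.94% lower, and the median change was 0.39. In 7 of the 9 peaks all M-phase libraries lay above all G1 libraries, as they did in 48.5% of all TSS peaks tested. The peaks of the sterol genes were strong, and strong TSS peaks rose more often in the whole table. Among the 5778 TSS peaks whose scaled counts averaged 200 or more, a level chosen after the values were seen, 71.7% were higher and the median change was 0.75. Of the 9 peaks, 8 reached that level, and these 8 were higher. Summed over the 9 TSS peaks, scaled counts were 3209 ± 623 in G1 and 6234 ± 393 in M-phase (SD, n = 3), a ratio of 1.94. The two-sided exact permutation test on these sums gave p = 0.1, the smallest value that 3 against 3 libraries allow.

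**Figure D1:**
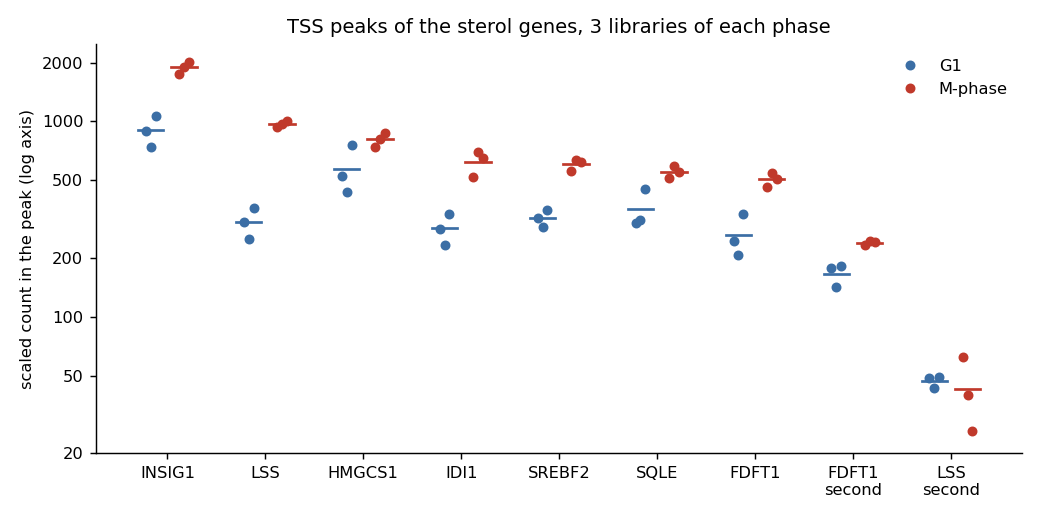
Scaled counts (log axis) of the 9 TSS peaks in the 3 G1 libraries (blue) and the 3 M-phase libraries (red), with horizontal bars at the means. The phases overlap at HMGCS1 and at the internal LSS peak, marked second, and are separate in the other 7 peaks. After a loess normalization HMGCS1, SQLE, INSIG1 and the internal LSS peak had changes below 0.

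HMGCS1 encodes the cytosolic HMG-CoA synthase, which condenses acetyl-CoA with acetoacetyl-CoA at the entry of the mevalonate pathway. Its TSS peak (chr5:43312484-43314079) had scaled counts of 523.9, 436.7 and 753 in G1 replicates 1, 2 and 3 and of 743.2, 813.4 and 873.8 in M-phase replicates 1, 2 and 3. G1 replicate 3 lay above M-phase replicate 1, so the phases overlapped. The change was 0.53 (SE 0.16, adjusted p = 0.007, limma), and it turned to -0.48 (adjusted p = 4.1e-05) after the loess normalization. Without G1 replicate 1, G1 replicate 2 or M-phase replicate 3 the adjusted p was 0.0567, 0.0549 or 0.0766. With equal totals in peaks it was 0.189, the highest of a range that began at 2.2e-06.

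IDI1 encodes the isomerase that converts isopentenyl diphosphate into dimethylallyl diphosphate, the starter of isoprenoid chains. Its TSS peak (chr10:1094081-1095740) also covers a start site of WDR37. The scaled counts were 282.3, 234.4 and 335 in the G1 replicates and 520.3, 695.5 and 648.2 in the M-phase replicates. All M-phase libraries lay above all G1 libraries. The change was 1.11 (SE 0.17, adjusted p = 9.2e-08, limma), and it kept its direction and its call after the loess normalization, at 0.31 (adjusted p = 0.032, the highest over its alternatives).

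FDFT1, the squalene synthase, commits farnesyl diphosphate to sterols. Its main TSS peak (chr8:11659651-11660945) had scaled counts of 243.6, 207 and 334 in G1 and of 464.3, 545.9 and 509.1 in M-phase, with no overlap between the phases. The change was 0.96 (SE 0.17, adjusted p = 5.7e-06, limma). After the loess normalization it was 0.21 (adjusted p = 0.181, the highest over its alternatives). An internal TSS peak (chr8:11665418-11666624), 5.77 kb downstream of the canonical TSS, had 177, 141.4 and 181 in G1 and 233.2, 244.3 and 240.6 in M-phase. The phases were again separate, by a smaller step of 0.51 (SE 0.19, adjusted p = 0.029, limma). That call was lost without G1 replicate 2 and without each M-phase replicate in turn, with adjusted p of 0.11, 0.0751, 0.124 and 0.0957, over a range of 0.006 to 0.921 across all alternatives.

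SQLE, the squalene epoxidase, carries out the first oxygen-dependent step of sterol synthesis. Its TSS peak (chr8:126009983-126011794) also covers a start of the divergent transcript SQLE-DT. It had scaled counts of 302.2, 313.3 and 451 in G1 and of 512.1, 593.7 and 550.5 in M-phase, and all M-phase libraries were higher than all G1 libraries. The change was 0.64 (SE 0.17, adjusted p = 0.0016, limma), and after the loess normalization it was -0.18 (adjusted p = 0.225, the highest over its alternatives).

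LSS, the lanosterol synthase, closes the rings of squalene epoxide. Its TSS peak (chr21:47647673-47649732), which also covers a start of MCM3AP-AS1, changed most among the 9. The scaled counts were 304.2, 249.2 and 360 in G1 and 931.8, 971.6 and 1001.3 in M-phase. Every M-phase library was thus far above the highest G1 library, and the ratio of the means was 3.18. The change was 1.66 (SE 0.16, adjusted p = 2.2e-14, limma), which placed it at percentile 99.2 of all TSS peaks tested. After the loess normalization it was 0.74 (adjusted p = 8.3e-09, the highest over its alternatives). An internal LSS start, 35.15 kb downstream, was covered by a weak peak (chr21:47613048-47614029) with 48.7, 43 and 49 in G1 and 62.2, 40 and 26 in M-phase. Here the phases overlapped, and the change of -0.17 (SE 0.25, adjusted p = 0.67, limma) did not pass the test.

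SREBF2 encodes SREBP-2, the transcription factor of the pathway. Its TSS peak (chr22:42228460-42229943), which holds the SRE printed above, had scaled counts of 321.1, 287.5 and 350 in G1 and of 557.8, 638.2 and 618.8 in M-phase. The phases did not overlap. The change was 0.91 (SE 0.16, adjusted p = 5.5e-06, limma), and after the loess normalization it was 0.08 (adjusted p = 0.638, the highest over its alternatives).

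INSIG1, the sterol-dependent retention factor, had the strongest TSS peak of the group (chr7:155088601-155091103), which also covers a start of INSIG1-DT. The scaled counts were 893.8, 737.5 and 1068 in G1 and 1755.7, 1906.1 and 2003.6 in M-phase. All M-phase libraries lay above all G1 libraries, and the change was 1.08 (SE 0.14, adjusted p = 1.9e-09, limma). After the loess normalization it was -0.21 (adjusted p = 0.013, the highest over its alternatives). By mean scaled count the peak stood at percentile 99.9 of all TSS peaks tested.

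Peak widths differ, so levels between genes were compared per kb of the strongest TSS peak. In G1 the order was INSIG1 (359 ± 66.1 scaled counts per kb), HMGCS1 (358 ± 102), SREBF2 (215 ± 21.1), FDFT1 (202 ± 50.5), SQLE (196 ± 45.7), IDI1 (171 ± 30.3) and LSS (148 ± 26.9; SD, n = 3). The ranges of neighbours in this order overlapped, apart from HMGCS1 and SREBF2. In M-phase the order was INSIG1 (754 ± 49.9), HMGCS1 (508 ± 41.0), LSS (470 ± 16.9), SREBF2 (408 ± 28.3), FDFT1 (391 ± 31.6), IDI1 (374 ± 54.6) and SQLE (305 ± 22.5; SD, n = 3). There the ranges of INSIG1 and HMGCS1, and those of LSS and SREBF2, did not overlap, and those of the other neighbours did. LSS was thus listed last in G1 and after HMGCS1 in M-phase. The TSS peaks had a median GC content of 62% and a median CpG observed over expected ratio of 0.767, beside 62.5% and 0.732 for all TSS peaks. They were wider, with a median of 1596 bp against 1152 bp.

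The size of the changes at the TSS depended on how the libraries were scaled, and at HMGCS1, SQLE and INSIG1 so did the direction. With TMM, which assumes that most peaks do not change, 8 of 9 TSS peaks were higher, against 6822 of all 15500 TSS peaks. With equal totals in peaks 6 were higher, against 29.3% of all TSS peaks, and HMGCS1 and the internal FDFT1 peak lost their calls. The loess normalization removes a smooth trend of the change over the mean level. It left LSS and IDI1 higher and HMGCS1 and INSIG1 lower, against 21.3% of all TSS peaks higher and 17.1% lower. The median of the 9 changes was then 0.03, beside 0.06 for all TSS peaks. The median over all peaks tested was 0.02 with the scaling of the authors, -0.02 with TMM, -0.23 with equal totals and 0.04 with the loess normalization. Relative to the fitted trend, LSS and IDI1 were therefore higher and HMGCS1 and INSIG1 lower. The median change of TSS peaks averaging 200 or more was 0.75 with the scaling of the authors. LSS (1.66), IDI1 (1.11) and INSIG1 (1.08) were above that median and HMGCS1 (0.53) was below it.

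**Figure D2:**
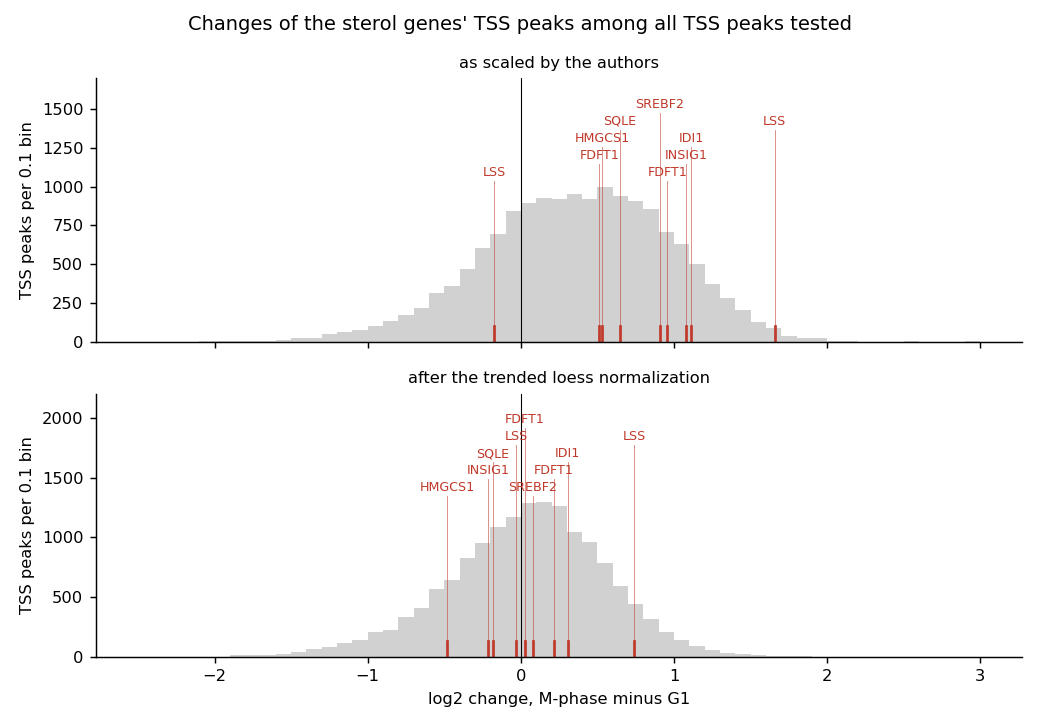
Number of TSS peaks per 0.1 bin of log2 change (M-phase minus G1) for all 15500 TSS peaks tested, with red lines at the 9 TSS peaks of the sterol genes (FDFT1 and LSS each have 2). With the scaling of the authors (top) 8 lines lie above 0. After the loess normalization (bottom) HMGCS1, INSIG1, SQLE and the internal LSS peak lie below 0 and the main LSS peak stays on the right.

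**Figure D3:**
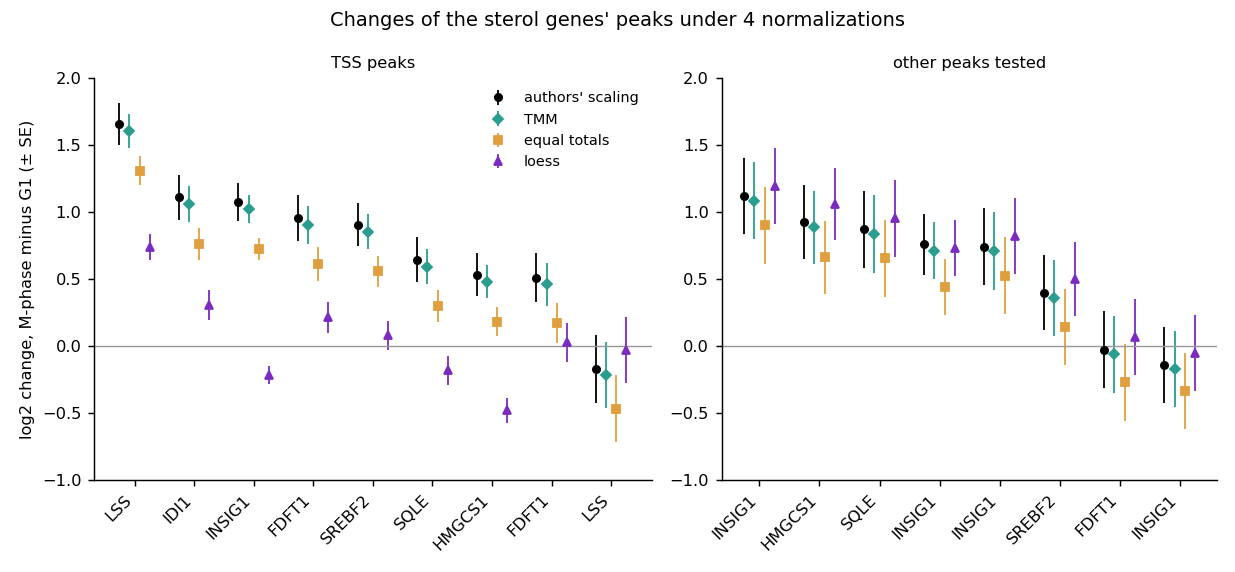
Log2 change (M-phase minus G1) with its SE for the 9 TSS peaks and the 8 other peaks tested, under the scaling of the authors, TMM, equal totals and loess. The loess values of the TSS peaks are lower than the others at strong peaks and cross 0 at INSIG1, SQLE and HMGCS1, whereas those of the other peaks lie close to the values with the scaling of the authors.

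Away from the start sites, 21 other peaks lay within 10 kb of HMGCS1, FDFT1, SQLE, SREBF2 and INSIG1, and IDI1 and LSS had none. They were weak and narrow, with a median scaled count of 9.78 and a median width of 194 bp. Only 8 of the 21 passed the filter on low counts, and 5 of these 8 were higher in M-phase and none lower, nor was any lower at an unadjusted p under 0.05 (limma). With TMM 4 were higher, beside 3591 of all 57621 other peaks tested. With the loess normalization 5 were higher, beside 4623 of all 57621. Over all 57621 with the scaling of the authors, 6.51% were higher and 15% lower. With equal totals in peaks 1 of the 8 was higher, beside 3.12% of all. It was the peak 7.41 kb downstream of INSIG1, which is given below with no test. In 6 of the 8 all M-phase libraries lay above all G1 libraries, as in 12.0% of all other peaks tested. The peak at SQLE and 2 of the peaks at INSIG1 had G1 means under 10, and their M-phase values were enough to pass the filter. Some G1 libraries also reached its minimum, which was rescaled to library size, most of all at the intronic INSIG1 peak. A higher value in M-phase was thus favoured but not fixed. A further INSIG1 peak passed mainly through G1, with an M-phase mean of 9.83, which favoured a lower value in M-phase. The counts over these 8 peaks are thus descriptions. Where at least 10 was required in every library, 4 of the 21 peaks were tested and 2 of them were higher, those at HMGCS1 and upstream of INSIG1, beside 9.33% of all other peaks tested under that filter.

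The strongest of these peaks lay 6.31 kb upstream of INSIG1 (chr7:155082678-155083176). It had scaled counts of 42.7, 60.2 and 57 in G1 and of 90.6, 110 and 85.7 in M-phase, a change of 0.76 (SE 0.23, adjusted p = 0.0066, limma). A peak 7.41 kb downstream of INSIG1 (chr7:155109359-155109591) had 6, 8.6 and 6 in G1 and 26.4, 19.4 and 27.4 in M-phase, a fitted change of 1.12 (SE 0.29). An intronic peak of INSIG1 (chr7:155097407-155097780) had 7, 8.6 and 10 in G1 and 11.9, 23.9 and 25 in M-phase, a fitted change of 0.74 (SE 0.29). The downstream and intronic peaks are given as values only, with no test. Their M-phase values were enough to pass the filter, which favoured a higher value in M-phase. The phases were separate in all 3 peaks. The upstream peak lost its call without G1 replicate 1 or M-phase replicate 2 (adjusted p = 0.0506 and 0.0762), over a range of 0.0026 to 0.0966 across its alternatives. Another peak, 6.44 kb downstream of INSIG1, had 9.9, 11.7 and 12 in G1 and 6.6, 15.7 and 7.2 in M-phase, a fitted change of -0.14 (SE 0.28). It is also given with no test, since its G1 values took it past the filter.

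At HMGCS1 a peak 5.15 kb downstream of the gene (chr5:43281996-43282421) had scaled counts of 19.9, 12.5 and 16 in G1 and of 32.5, 38.7 and 41.9 in M-phase. All M-phase libraries lay above all G1 libraries, and the change was 0.93 (SE 0.28, adjusted p = 0.0067, limma). It was 1.06 after the loess normalization, whereas the TSS peak of the same gene was at -0.48. With equal totals in peaks the downstream peak was at 0.66 (SE 0.27, adjusted p = 0.0541, limma) and lost its call. At SQLE a peak 9.67 kb downstream (chr8:126044195-126044462) had 7, 8.6 and 6 in G1 and 15.2, 16.1 and 30.3 in M-phase, a fitted change of 0.87 (SE 0.29). Its M-phase values too were enough to pass the filter, so it is given with no test. M-phase replicate 3 was the highest there. At SREBF2 the strongest other peak lay in an exon (chr22:42296197-42296524) and had a change of 0.40 (SE 0.28, adjusted p = 0.32, limma). At FDFT1 the strongest other peak lay 6.1 kb upstream (chr8:11646570-11646980) and had a change of -0.03 (SE 0.29, adjusted p = 0.958, limma).

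**Figure D4:**
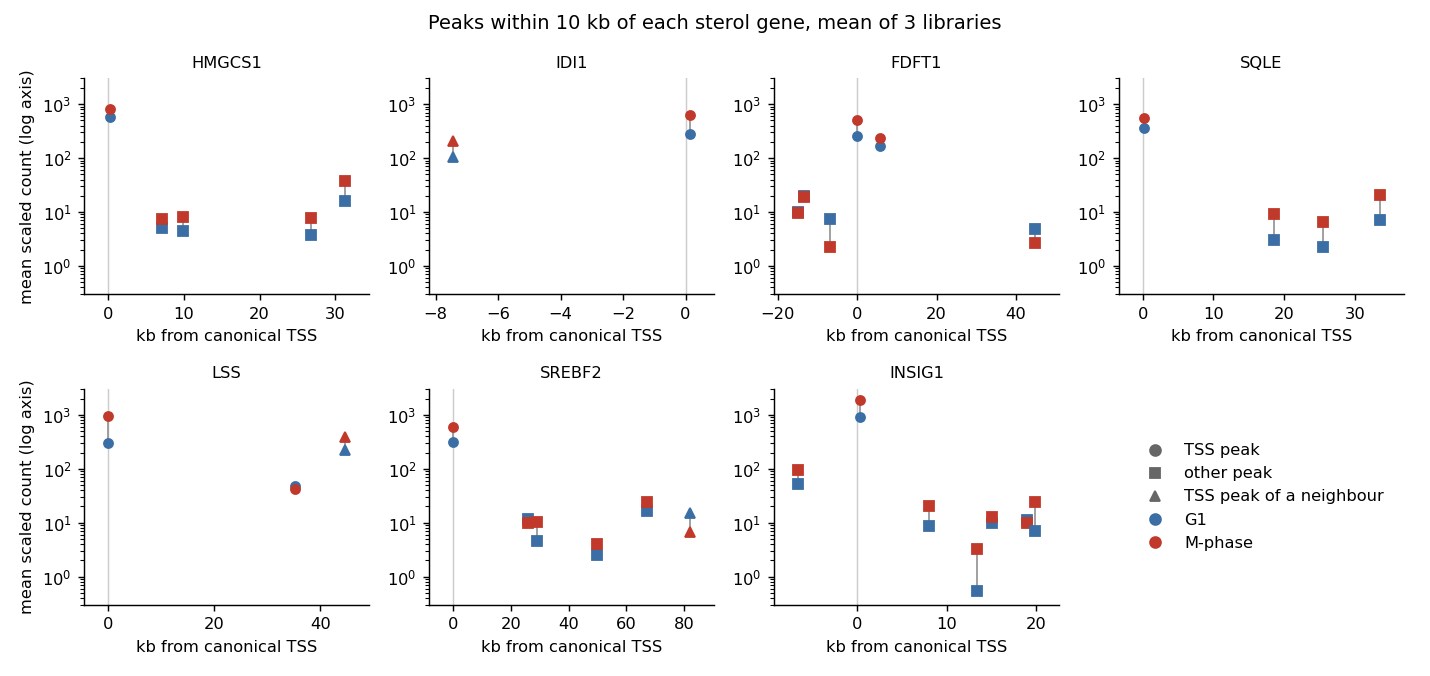
Mean scaled counts (log axis) of the 33 peaks against the distance of their centre from the canonical TSS, in kb along the direction of the gene, in G1 (blue) and M-phase (red), each the mean of 3 libraries. The TSS peaks (circles) near 0 are the strongest peak of each gene, and most other peaks (squares) have means under 50.

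The other peaks were also compared with the TSS peaks within each library. The median log2(scaled count + 8) of the 9 TSS peaks minus that of the 8 tested other peaks was 3.96 ± 0.25 in G1 and 4.30 ± 0.13 in M-phase (SD, n = 3). The G1 libraries spanned 3.68 to 4.13 and the M-phase libraries 4.20 to 4.45, without overlap. The filter favoured M-phase at 3 of the 8 other peaks and G1 at a further INSIG1 peak, so this difference is a description, with no test. Over all peaks the same difference was 2.24 ± 0.13 in G1 and 2.76 ± 0.08 in M-phase. Summed over the 21 other peaks, scaled counts were 209 ± 32.6 in G1 and 345 ± 10.5 in M-phase (SD, n = 3), a ratio of 1.65 (exact permutation test, p = 0.1). By gene, the sums of other peaks were separate between the phases at HMGCS1, SQLE and INSIG1, with ratios of 2.09, 2.93 and 1.84, and overlapped at FDFT1 and SREBF2, with ratios of 0.776 and 1.38. Of the TSS peaks of neighbouring genes, that of WDR37 beside IDI1 changed by 0.99 (adjusted p = 7e-05, limma). That of SPATC1L beside LSS, which also covers a start of a further gene, changed by 0.76 (adjusted p = 0.00032, limma). After the loess normalization the changes were 0.64 (adjusted p = 0.0026) and 0.11 (adjusted p = 0.549), so that SPATC1L lost its call. The TSS peak of SHISA8 beside SREBF2 did not pass the filter on low counts.

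The rest of the pathway was represented by 30 genes in 3 lists, of which 29 had a TSS peak and ABCA1, a sterol exporter, had none. By the strongest TSS peak of each gene, 16 of the 29 were higher in M-phase, 1 lower and 12 did not pass the test, and the median change was 0.63 (limma, with 43.2% of all TSS peaks higher). Of the 22 genes whose peak averaged 200 or more 14 were higher, with a median change of 0.76, beside 71.7% and 0.75 for all TSS peaks of that level. After the loess normalization 8 of the 29 were higher and 8 lower, beside 21.3% and 17.1% of all TSS peaks. With equal totals 14 were higher and 5 lower, beside 29.3% and 17.2%. Of the synthesis enzymes 8 of 16 were higher and none lower, also at an unadjusted p under 0.05, with the largest change at MVD, the mevalonate diphosphate decarboxylase, at 1.20 (adjusted p = 2.5e-08). Of the genes that control SREBP processing or stability 4 of 6 were higher and none lower by either p (limma). After the loess normalization 1 enzyme was higher and 5 lower, and 3 genes of the control list were higher and 1 lower. The control list included RNF139, an endoplasmic reticulum ubiquitin ligase, at 1.39 (adjusted p = 1.5e-11) and SREBF1, which encodes the factor SREBP-1, at 1.37 (adjusted p = 3.6e-10). Of the 7 genes of uptake, trafficking and efflux with a TSS peak 4 were higher and 1 lower. NPC1, which exports cholesterol from late endosomes and lysosomes, changed by 1.39 (adjusted p = 1.1e-09).

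The gene that was lower was NR1H3, which encodes the oxysterol receptor LXR-alpha. The stronger of its 2 TSS peaks had scaled counts of 111.3, 73.4 and 107 in G1 and of 37.5, 42.4 and 68.8 in M-phase, all M-phase libraries lying below all G1 libraries. The change was -0.89 (SE 0.23, adjusted p = 0.0019, limma). The weaker peak did not pass the test. NR1H2, which encodes the related receptor LXR-beta, changed in the other direction, by 0.84 (adjusted p = 0.00039, limma).

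**Figure D5:**
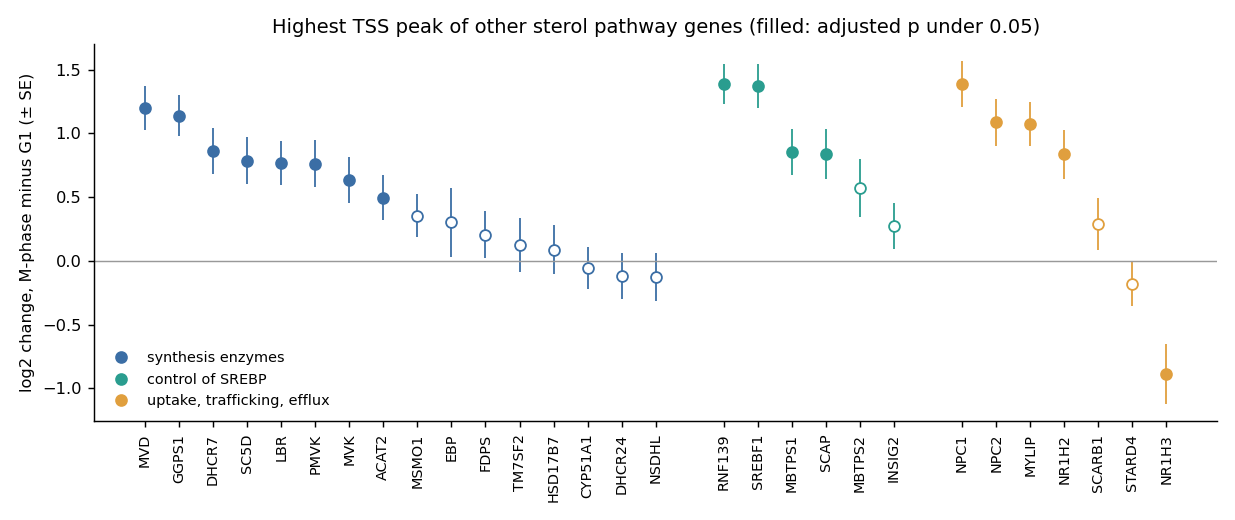
Log2 change (M-phase minus G1) with its SE for the strongest TSS peak of 29 other sterol pathway genes, by list, with filled points for an adjusted p under 0.05. RNF139, NPC1 and SREBF1 lie highest at 1.37 to 1.39 and NR1H3 lies lowest at -0.89. After a loess normalization 8 of the 29 were higher and 8 lower, beside 21.3% and 17.1% of all TSS peaks.

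Profiles of the members across the 6 libraries were compared by the root mean square difference from the mean centred log2 profile of the 7 strongest TSS peaks, computed over the 6 libraries. It was 0.0477 for FDFT1, 0.0605 for INSIG1, 0.0906 for SREBF2, 0.0953 for IDI1, 0.189 for SQLE, 0.239 for HMGCS1 and 0.341 for LSS, each of which is part of that mean. Among the 29 other pathway genes the closest were MBTPS1 (0.0775), which encodes the site-1 protease that cuts SREBP, MYLIP (0.108), a ubiquitin ligase, and GGPS1 (0.125), the geranylgeranyl diphosphate synthase. The mean profile was itself lowest in G1 replicate 2, at -0.74, and highest in M-phase replicate 2, at 0.56. G1 replicate 3 was the highest G1 library in all 9 TSS peaks.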

How the data were processed

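Only the ATAC-seq libraries were used, and the chromatin fraction and input samples were not analysed here. The deposited signal is a count of reads per peak, brought by the authors to the size of the smallest library and given to 0.1, after mapping to hg19 with up to 3 locations allowed per read and 1 kept, removing mitochondrial reads and calling broad peaks on merged replicates. Near-identical sequences therefore share reads. Tool versions and any shift of read ends for the Tn5 insertion site are not given in the sources used here. Each M-phase column is 1 replicate, for which the labels list HiSeq and NextSeq runs, and how these were joined is not given in the sources used here. The authors' table also holds a log2 change and the SD of its paired differences, which were not used, and 0 columns of per-sample values were left out. The values could not be turned back into whole reads in every library, so no count model was used.

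A limma model (version 3.58.1, R 4.3.3) with a trended prior variance and no covariates was fitted to log2(scaled count + 8) of the 73121 peaks that reached 10, rescaled to the median library, in 3 or more libraries and 15 in total. The pseudocount understates changes of weak peaks. The fit was tested on simulated data. Gene bodies and start sites came from GENCODE release 44 lifted to GRCh37, whose chromosomes contained all peaks. Promoter sequences were read from that assembly with pysam 0.24.0, and permutation tests used scipy 1.17.1. The members, the gene lists and the tests were chosen with earlier results of these data known. Named were all members, their TSS peaks, their other peaks with an adjusted p under 0.05 and the strongest other peak of each, the 4 pathway genes with the largest changes and any that was lower, and the 3 most like the members. A gene of the pathway lists is not reported here and was left out of their counts. NR1H2 and ABCA1 were added after their values were seen. Alternatives were TMM scaling, equal totals in peaks, a trended loess normalization, a pseudocount of 1, other filters, a replicate block, each library left out, other definitions of TSS peaks and windows, and a shorter SRE.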

Additional observations from a re-analysis of the deposited data

How the results depend on the processing

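The 9 TSS peaks of the sterol genes gave 8 higher and 0 lower, and these counts moved with the trended loess normalization, to 2 higher and 2 lower. Their median change moved from 0.91 to 0.56 with equal totals in peaks and to 0.026 with loess. Reversed by loess were HMGCS1 (-0.48), SQLE (-0.18) and INSIG1 (-0.21). Of the 8 other peaks tested 5 were higher, and 1 with equal totals. Other numbers were tested when at least 10 was required in every library (2 of 4 higher), within gene bodies alone (1 of 2) and within 50 kb of them (9 of 41 higher and 4 lower), beside 6.51% higher and 15% lower among all other peaks in the reported setting. Their median of 0.75 moved to 0.48 with equal totals, 0.97 with a pseudocount of 1, 0.41 with no filter and 0.58 with at least 10 in every library. Leaving out each library in turn gave 3 to 5 other peaks higher, with 3 without G1 replicate 1, M-phase replicate 2 or M-phase replicate 3, and medians between 0.63 and 0.88. Of the 32 TSS peaks of the 29 other pathway genes 17 were higher and 1 lower, beside 43.2% and 5.94% of all TSS peaks. With loess 8 were higher and 8 lower, beside 21.3% and 17.1%. With equal totals 14 were higher and 5 lower, beside 29.3% and 17.2%. The 9 TSS peaks were wider than all TSS peaks (median 1596 bp against 1152 bp), which leaves more room for a match. The SRE was found in 2 of the 9 TSS peaks and its shorter form in 5, beside 4.82% and 21.1% of all TSS peaks. The cause of these differences was not tested.

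The fit with a replicate block left 8 TSS peaks and 5 other peaks of the sterol genes higher and 0 lower. Of the TSS peaks of the pathway genes 18 were higher and 1 lower. Shares over all peaks are not given here for this fit. The deviations of libraries with the same number correlated at 0.006, -0.010 and 0.028. These values cannot show whether such libraries shared a day or a batch, which is not given in the sources used here. Count models on recovered reads were not run, because whole reads were not recovered in all libraries. Of the other peaks 13 of 21 did not reach the filter on low counts and were not tested.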
